A study of Mus musculus with 24 samples.

Results

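The 10 genes described here belong to the antioxidant programme controlled by the transcription factor NRF2, and they were chosen by gene symbol from the 18368 genes of the deposited expression table: Nfe2l2, which encodes NRF2 itself, Hmox1, Nqo1, Gclc, Gclm, Txnrd1, Srxn1, Slc7a11, Prdx1 and Prdx6. Their levels were followed in 24 RNA-seq libraries from 12 CD1 mice, an outbred stock, aged 7 weeks and labelled as in the resting (telogen) phase of the hair cycle. Each mouse was wounded at a single site of the abdomen, back or cheek, with 1 wound on the cheek and 2 on the abdomen or back, made by excision of a 2 mm disc of skin. At day 3 a 2 mm punch of the wound and a 2 mm punch of the neighbouring healthy skin were taken, so each of the 6 groups (3 sites, wound or unwounded) held 4 libraries, one per mouse. The labels name no engineered allele, and the unwounded skin came from wounded, shaved animals, so it is a control for the local wound only.

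NRF2 is held at low abundance by the adaptor KEAP1, which presents it to a ubiquitin ligase. When oxidants or electrophiles modify KEAP1, NRF2 accumulates, pairs with small MAF proteins and binds antioxidant response elements near genes that make glutathione, repair oxidised thiols, reduce quinones and break down haem, while BACH1 competes for the same elements. In healing skin this programme is known for protecting keratinocytes and inflammatory cells against reactive oxygen species.

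The elements in question can be looked for in the stretch before each gene's start. Promoter sequences of the reference strain C57BL/6J (RefSeq, GRCm38.p6) were found by symbol for 7 of the 10 genes, and not for Hmox1, Gclc and Prdx6. The entries of Srxn1, Prdx1 and Nqo1 end at the annotated start of the gene. That of Nfe2l2 does too but matched no GENCODE transcript on either strand, that of Gclm reaches across the annotated start, that of Slc7a11 lies inside the annotated gene, and Txnrd1 has 3 entries, of which 2 lie inside the gene. Both strands of the 250 bases before the start that each entry gives were searched for the core of the antioxidant response element (TGACNNNGC), for the AP-1 element (TGAGTCA), which overlaps the response element in some promoters, and for the variant TGAGNNNGC, a motif added after the sequences had been seen. The following 3 promoters are shown because 2 of them belong to genes that rose in wounds and hold copies of TGAGTCA, while the gene of the other did not pass any wound test. Picked by motif and wound result together, they cannot show a link between the 2, which was not tested. Capitals mark every match to the 3 motifs, on the gene's strand or, read backwards, on the opposite one.
Srxn1 (chr2:152105274-152105523, plus strand): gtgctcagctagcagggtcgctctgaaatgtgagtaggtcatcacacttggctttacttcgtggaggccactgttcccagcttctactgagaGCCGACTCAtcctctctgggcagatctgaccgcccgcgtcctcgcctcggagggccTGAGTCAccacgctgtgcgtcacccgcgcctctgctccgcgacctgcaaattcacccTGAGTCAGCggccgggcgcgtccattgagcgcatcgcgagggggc
Prdx1 (chr4:116685349-116685598, plus strand): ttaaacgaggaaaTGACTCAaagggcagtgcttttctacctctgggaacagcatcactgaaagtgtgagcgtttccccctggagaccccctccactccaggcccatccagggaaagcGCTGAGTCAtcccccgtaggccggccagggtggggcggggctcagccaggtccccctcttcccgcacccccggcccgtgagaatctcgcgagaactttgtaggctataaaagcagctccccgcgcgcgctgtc
Nqo1 (chr8:107403206-107403455, minus strand): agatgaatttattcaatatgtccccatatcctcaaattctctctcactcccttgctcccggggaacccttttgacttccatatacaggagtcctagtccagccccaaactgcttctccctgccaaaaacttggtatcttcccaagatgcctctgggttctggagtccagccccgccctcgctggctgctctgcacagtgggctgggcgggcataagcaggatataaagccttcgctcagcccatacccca
Srxn1 held TGAGTCA from 102 to 96 and from 45 to 39 bases before its start, and the copy nearer the start was also a TGAGNNNGC match. Another TGAGNNNGC match of Srxn1 lay on the opposite strand, from 158 to 150 bases before the start. Prdx1 held TGAGTCA from 131 to 125 and, on the opposite strand, from 237 to 231 bases before its start, and the former copy overlapped a TGACNNNGC match on the opposite strand from 133 to 125. Nqo1 held none of the 3 motifs within this window. Over the 7 genes, TGACNNNGC was found in 4 (Prdx1, the doubtful entries of Nfe2l2 and Gclm, and 1 of the Txnrd1 entries inside the gene), TGAGTCA in 2 (Srxn1 and Prdx1) and TGAGNNNGC in 2 (Srxn1 and the Slc7a11 entry inside the gene). Of all 32851 promoters, 10.2%, 4.46% and 14.4% held them. These shares are per promoter and the counts per gene, so a gene with several entries had more chances to match. These are matches of letters in a short window and not binding sites. Of the genes that rose, Hmox1 lies on chromosome 8 (RefSeq, GRCm38.p6) from 75093618 to 75100593, Slc7a11 on chromosome 3 from 50364936 to 50499087, Srxn1 on chromosome 2 from 152105524 to 152111376, Nfe2l2 on chromosome 2 from 75675513 to 75704663 and Prdx1 on chromosome 4 from 116685599 to 116700000. Other annotated genes overlap Nfe2l2, Gclm, Txnrd1 and Slc7a11, and their reads may be shared.

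Levels are given as FPKM, which divides fragments by transcript length and by the total mapped in that library, a unit that allows levels of different genes to be set side by side. No fragment counts accompany these values, so depth and counting error are unknown. All 10 genes passed the filter on low values (4 or more libraries of a fit at 0.5 FPKM or above). Unless stated otherwise, tests were made with limma on log2(FPKM + 0.5), a scale that understates the change of low genes, with Benjamini-Hochberg adjustment over all tested genes, a threshold of 0.001 for wound effects and of 0.05 between sites.

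The labelled tissue was checked on marker genes of the cells that skin holds. All 7 genes of the interfollicular epidermis list and all 6 of the fibroblast list were above 0 in every library. The summed FPKM of 9 macrophage genes lay between 406 and 813 in unwounded and between 805 and 1356 in wound libraries, with 7 of 9 genes higher in wounds, and that of 8 neutrophil genes between 8.95 and 37.9 and between 356 and 2396, with 8 of 8 higher. All 5 genes of activated keratinocytes rose as well, all 6 adipocyte genes fell, 2 of 6 fibroblast genes fell, 3 of 7 interfollicular genes rose and 2 of 6 tested sebaceous gland genes fell. None of 7 skeletal muscle genes and none of 5 tested red blood cell genes passed the test. The mean summed FPKM of the muscle genes was still lower in wounds. It was 15670 ± 3145 (SD, n = 4) unwounded and 3270 ± 520.5 wounded in back, and 14220 ± 4310 and 4940 ± 685 in cheek, without overlap. In abdomen it was 6716 ± 6301 and 2669 ± 1334, with overlap. Their median log2 difference over the sites was -1.44. In whole tissue, a higher number of cells of a type and more RNA per cell cannot be told apart, and the part of these cells in the changes below was not tested. Unwounded abdomen libraries differed in the skeletal muscle sum, with 406 in mouse 2 and 2191 in mouse 3 against 12340 in mouse 1 and 11920 in mouse 4. The part of this in the abdomen results was not tested. By genes above all other libraries, a count that cannot show a library with low values, 1 library stood apart. In the unwounded library of cheek mouse 4, 238 genes were more than 2-fold above all 23 other libraries, against 0 to 7 in each of the others, and the summed FPKM of 18 hair shaft and inner root sheath genes (a list made after values were seen) was 6651 there against at most 99.4 elsewhere. These values go against the telogen label, and results that move with this library are given with and without this mouse.

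Wounding raised 5 of the 10 genes at the adjusted p threshold of 0.001 and lowered none, as the mean of the effects at the 3 sites: Hmox1, Slc7a11, Srxn1, Nfe2l2 and Prdx1. Of all 14423 tested genes, 33.4% passed this test, 19.1% as higher and 14.4% as lower. The median log2 difference was 0.30 over the 10 genes and 0.018 over all tested genes. At 0.05, which 62.7% of tested genes passed, Gclm was the only addition, and Gclc, Nqo1, Txnrd1 and Prdx6 passed neither threshold.

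**Figure D1:**
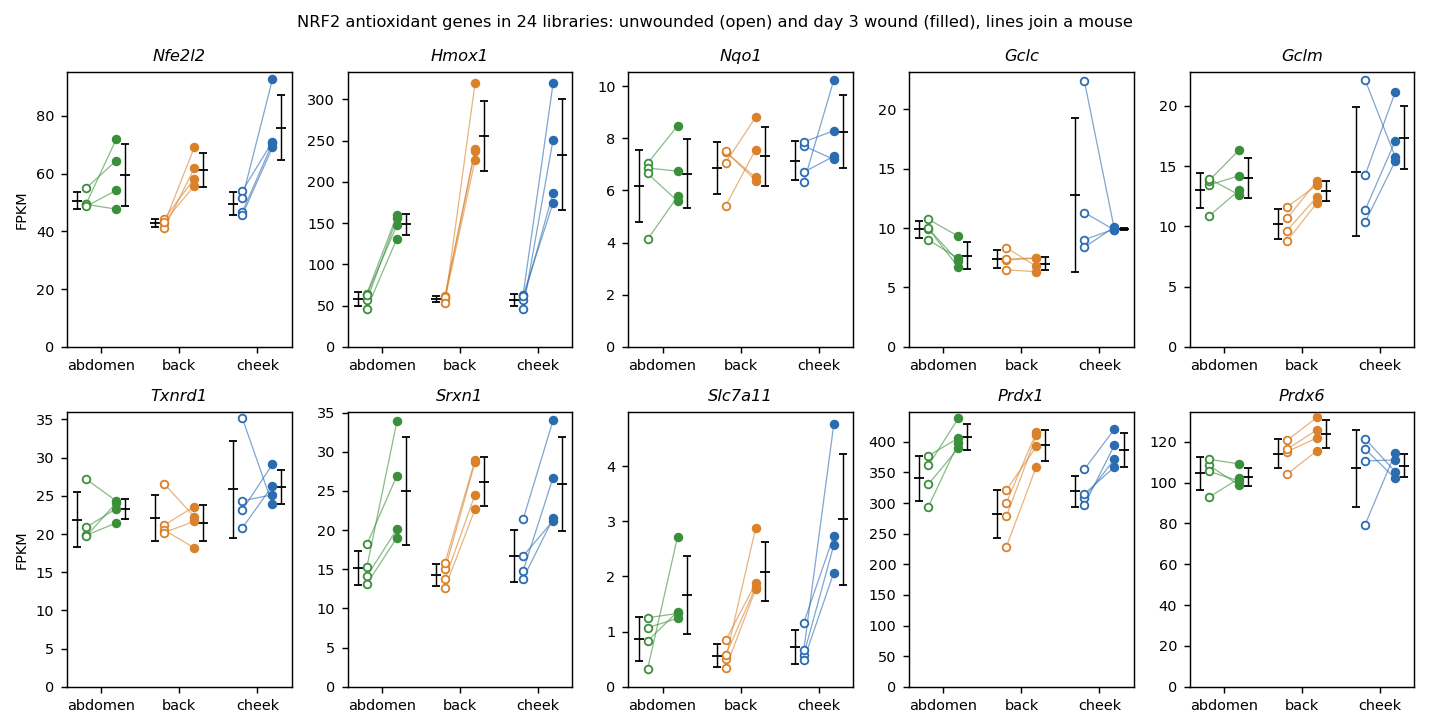
FPKM (vertical axes, from 0) of the 10 genes in 24 libraries, with unwounded skin as open circles, day 3 wounds as filled circles, lines joining the libraries of a mouse, and black bars for the mean and SD of 4 mice. All 12 Hmox1 wound values lie above all 12 unwounded values, and the unwounded cheek library at 22.35 FPKM stands alone in the panel of Gclc.

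Hmox1 encodes haem oxygenase 1, which splits haem into biliverdin, carbon monoxide and iron, and it had the largest log2 difference of the 10 over the sites, although in cheek the ratio of mean FPKM was larger for Slc7a11. In unwounded skin its levels were 56.21, 64.47, 63.3 and 46.36 FPKM in abdomen mice 1 to 4, 61.52, 57.58, 60.83 and 53.07 in back and 56.22, 46.22, 62.76 and 61.84 in cheek. In wounds they were 155.72, 159.49, 147.46 and 131.28 in abdomen, 237, 226.1, 240.18 and 319.38 in back and 187.09, 251.36, 319.72 and 174.6 in cheek. Every wound library was above every unwounded library, whatever the site, a separation shown in the higher direction by 5.57% of tested genes. The mean FPKM of wounds was 2.58 times that of unwounded skin in abdomen, 4.39 times in back and 4.11 times in cheek. The log2 differences within mice were 1.37 ± 0.15 (SE, limma adjusted p = 5e-05) in abdomen, 2.11 ± 0.15 (adjusted p = 8.5e-07) in back and 2.00 ± 0.15 (adjusted p = 1.4e-06) in cheek. All 12 mice were higher in the wound (exact sign-change test over 12 mice, two-sided, p = 0.000488, the smallest it allows). Hmox1 was called at all 3 sites whichever of the 12 mice was left out, and its cheek call was lost only when the 8 cheek libraries were fitted alone (adjusted p = 0.0012).

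Nfe2l2, the gene of NRF2, rose by a smaller amount. Unwounded levels were 49.56, 55.02, 49.36 and 48.65 FPKM in abdomen mice 1 to 4, 42.81, 41.11, 44.36 and 43.39 in back and 54.04, 46.79, 51.63 and 45.74 in cheek. Wound levels were 71.96, 64.51, 47.71 and 54.23 in abdomen, 69.11, 61.93, 58.3 and 55.79 in back and 71.11, 70.49, 92.67 and 69.08 in cheek. Wound and unwounded libraries did not overlap in back and cheek and overlapped in abdomen, where mouse 3 was the only 1 of 12 mice with a lower wound value. The mean log2 difference over the sites was 0.44 ± 0.057 (SE, limma adjusted p = 2.4e-05, exact sign-change test over 12 mice p = 0.000977). By site it was 0.22 ± 0.098 in abdomen (limma adjusted p = 0.11; 0.11 on the log2 scale without abdomen mouse 1), 0.50 ± 0.098 in back (adjusted p = 0.0013) and 0.60 ± 0.098 in cheek (adjusted p = 0.00056). The cheek value kept its size in the fits that left out a mouse (0.52 to 0.67), but its adjusted p was above 0.001 in 7 of 12 of them, those without abdomen mouse 2, back mice 2 and 3 or any cheek mouse, at most 0.0048.

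The thiol-repair genes divided into 2 that rose and 2 that did not pass the test. Srxn1 encodes sulfiredoxin, which restores overoxidised peroxiredoxins. In unwounded skin it had 15.3, 14.11, 18.19 and 13.14 FPKM in abdomen mice 1 to 4, 14.98, 15.82, 12.63 and 13.72 in back and 14.81, 13.81, 21.36 and 16.7 in cheek. Wound values were 33.89, 20.12, 26.96 and 19.04 in abdomen, 28.66, 28.97, 22.66 and 24.53 in back and 26.72, 21.5, 34.03 and 21.19 in cheek. The groups did not overlap in abdomen and back, and in cheek the lowest wound (mouse 4, 21.19) lay just below the highest unwounded library (mouse 3, 21.36). Within mice the difference had the same sign in 12 of 12 (exact sign-change test p = 0.000488). The log2 difference was 0.67 ± 0.10 (SE, limma adjusted p = 0.00054) in abdomen, 0.85 ± 0.10 (adjusted p = 4.6e-05) in back and 0.61 ± 0.10 (adjusted p = 0.00073) in cheek. The back call held whichever of the 12 mice was left out. The abdomen call was lost without any one abdomen or back mouse (adjusted p at most 0.0025), and the cheek call was lost in 10 of 12 fits, with cheek mouse 4 and abdomen mouse 1 the exceptions (at most 0.0058).

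Prdx1, a peroxiredoxin that reduces hydrogen peroxide, was the most abundant of the 10. Its unwounded values were 330.49, 376.92, 361.29 and 293.52 FPKM in abdomen mice 1 to 4, 300.32, 228.64, 278.07 and 321.07 in back and 307.99, 296.96, 355.29 and 315.15 in cheek. Its wound values were 389.5, 405.99, 438.32 and 397.94 in abdomen, 415.75, 359.58, 410.26 and 392.31 in back and 371.69, 394.85, 420.71 and 358.69 in cheek. At every site the wound libraries were all above the unwounded ones, and all 12 mice were higher in the wound (exact sign-change test p = 0.000488). The differences were small, with a log2 value of 0.35 ± 0.048 (SE, limma adjusted p = 4.7e-05) over the sites, 0.27 ± 0.083 in abdomen (adjusted p = 0.027), 0.49 ± 0.083 in back (adjusted p = 0.0005) and 0.28 ± 0.083 in cheek (adjusted p = 0.02). The back call was lost when 1 of 5 mice was left out (back mice 1, 2 and 3, abdomen mouse 3 and cheek mouse 1), where the adjusted p was at most 0.0053.

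Prdx6, a peroxiredoxin that also reduces oxidised phospholipids, ranged over 79.42 to 121.48 FPKM in the 12 unwounded and 98.8 to 132.01 in the 12 wound libraries. The groups overlapped at each site, and the log2 difference over the sites was 0.043 ± 0.060 (SE, limma adjusted p = 0.55, 95% interval -0.087 to 0.17), with 7 of 12 mice higher. Txnrd1, the thioredoxin reductase of the cytosol, ranged over 19.7 to 35.14 and 18.18 to 29.12 FPKM. Its log2 difference was 0.032 ± 0.075 (limma adjusted p = 0.73, interval -0.13 to 0.19), with 8 of 12 mice higher. Without cheek mouse 4 the Txnrd1 value was 0.097 over the sites (adjusted p = 0.15) and went from 0.038 to 0.23 in cheek, and the Prdx6 value in cheek went from 0.034 to -0.13. The sign of both small differences over the sites turned under quantile normalization and without 1 cheek mouse (Prdx6 without mouse 4, Txnrd1 without mouse 2).

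The glutathione genes showed 3 patterns. Slc7a11 encodes the cystine importer that supplies cysteine for glutathione, and it was the least abundant of the 10. Its unwounded values were 0.32, 1.07, 0.83 and 1.25 FPKM in abdomen mice 1 to 4, 0.51, 0.34, 0.57 and 0.84 in back and 0.58, 0.48, 0.66 and 1.16 in cheek. Its wound values were 2.72, 1.24, 1.36 and 1.33 in abdomen, 2.88, 1.77, 1.81 and 1.88 in back and 2.57, 2.07, 4.76 and 2.74 in cheek. Groups overlapped in abdomen, where mouse 1 had both the lowest unwounded and the highest wound value, and were apart in back and cheek. The ratio of mean FPKM, wound over unwounded, was 1.92 for abdomen, 3.69 for back and 4.22 for cheek, and 12 of 12 mice were higher in the wound (exact sign-change test p = 0.000488). The log2 difference was 1.15 ± 0.16 (SE, limma adjusted p = 5.6e-05) over the sites, and at no single site was it called at 0.001, with 0.67 ± 0.28 in abdomen (adjusted p = 0.086), 1.28 ± 0.28 in back (adjusted p = 0.0029) and 1.51 ± 0.28 in cheek (adjusted p = 0.0014). Without abdomen mouse 1 the abdomen value fell to 0.23 (adjusted p = 0.47). Those of back and cheek passed 0.001 without that mouse (adjusted p = 0.00023 and 0.0001) and without a term for the mouse (0.00049 and 0.00014).

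Gclc and Gclm encode the catalytic and the modifier subunit of glutamate-cysteine ligase, the rate-limiting enzyme of glutathione synthesis, and their wound differences had opposite signs. Gclm had 13.43, 13.79, 13.96 and 10.86 FPKM in unwounded abdomen, 11.61, 10.66, 8.79 and 9.65 in back and 10.36, 11.36, 14.25 and 22.15 in cheek. In wounds it had 14.19, 16.32, 12.61 and 12.98 in abdomen, 13.44, 13.77, 11.96 and 12.46 in back and 15.4, 17.08, 21.14 and 15.78 in cheek. Wounds were apart from unwounded skin in back only, and the highest unwounded value of all was that of cheek mouse 4. The log2 difference over the sites was 0.25 ± 0.084 (SE, limma adjusted p = 0.021), with 10 of 12 mice higher (exact sign-change test p = 0.0229). Without cheek mouse 4 it was 0.33 (limma adjusted p = 6.4e-05), and the cheek value went from 0.30 (adjusted p = 0.12) to 0.56 (adjusted p = 0.00066). The count of raised genes over the sites was 6 of 10 in that fit, whose share of all tested genes is not given here.

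Gclc had 9, 10.75, 9.95 and 9.98 FPKM in unwounded abdomen, 7.31, 7.39, 6.48 and 8.35 in back and 9.02, 8.4, 11.31 and 22.35 in cheek. In wounds it had 7.46, 9.31, 6.71 and 7.19 in abdomen, 7.46, 7.49, 6.33 and 6.77 in back and 9.93, 10.08, 9.84 and 9.86 in cheek. The wound value was lower in 4 of 4 abdomen mice but only 8 of 12 in all, and groups overlapped at each site. The log2 difference over the sites was -0.22 ± 0.099 (SE, limma adjusted p = 0.068, exact sign-change test over 12 mice p = 0.042 without adjustment for the 10 genes). Without cheek mouse 4 the cheek value turned from -0.24 (limma adjusted p = 0.30) to 0.063, and the mean over the sites was then -0.12.

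Nqo1, the quinone reductase that is often used as a readout of NRF2, ranged over 4.12 to 7.86 FPKM in unwounded and 5.59 to 10.24 in wound libraries and overlapped at every site. Its log2 difference over the sites was 0.13 ± 0.085 (SE, limma adjusted p = 0.21, interval -0.057 to 0.31), with 7 of 12 mice higher.

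**Figure D2:**
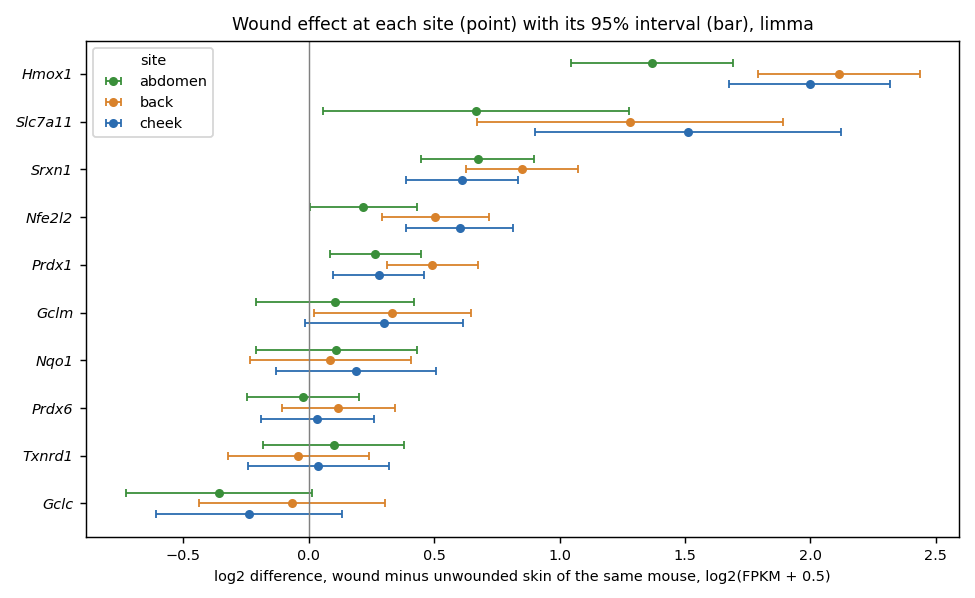
Log2 difference between wound and unwounded skin of the same mouse (horizontal axis) with its 95% interval from limma, for each gene and site, ordered by the mean over the sites. Hmox1 lies between 1.37 and 2.11 with intervals well above 0, and all 3 intervals of Nqo1, Prdx6, Txnrd1 and Gclc include 0.

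Counted by site, 2 of the 10 genes passed 0.001 in abdomen (Hmox1 and Srxn1), 3 in back (Hmox1, Srxn1 and Prdx1) and 3 in cheek (Hmox1, Srxn1 and Nfe2l2), all as higher. The share of all tested genes that passed was 4.96% in abdomen (3.92% as higher), 14.4% in back (10% as higher) and 8.69% in cheek (6.5% as higher). Wound libraries were all above unwounded libraries for 3, 6 and 4 of the 10 genes, against 13.4%, 25.6% and 16.8% of tested genes. The count of 3 in cheek fell to 1 without abdomen mouse 2, back mouse 2 or 3 or cheek mouse 1, 2 or 3, that of 2 in abdomen fell to 1 without any one abdomen or back mouse, and that of 3 in back rose to 5 without abdomen mouse 1. At an adjusted p of 0.05, 3 genes passed in abdomen, 5 in back and 5 in cheek, all as higher, against 32.9%, 45.9% and 36.6% of tested genes in either direction. Median-ratio scaling ended the cheek calls of Nfe2l2 and Srxn1 (adjusted p = 0.0016 and 0.0010), and quantile normalization that of Prdx1 in back (0.0019).

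Whether the response differed between sites was asked by an F test of the 3 wound effects. None of the 10 genes passed (limma adjusted p at least 0.25), against 0.0208% of tested genes that did, and 2 genes had an unadjusted p under 0.05, against 12.9% of tested genes. These were Hmox1 (adjusted p = 0.25) and Nfe2l2 (adjusted p = 0.36). The wound effect on Hmox1 was 0.75 ± 0.21 (SE) larger on the log2 scale in back than in abdomen (95% interval 0.29 to 1.2, limma adjusted p = 0.16) and 0.63 ± 0.21 larger in cheek than in abdomen (interval 0.17 to 1.09, adjusted p = 0.32). That on Nfe2l2 was 0.38 ± 0.14 larger in cheek than in abdomen (interval 0.084 to 0.69, adjusted p = 0.35). These intervals are not adjusted for the number of genes.

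In unwounded skin none of the 10 genes differed between sites at an adjusted p of 0.05. Of all tested genes, 2.67% passed between back and abdomen, 2.57% between cheek and abdomen and 1.05% between cheek and back, and 2, 0 and 3 of the 10 genes had an unadjusted p under 0.05, against 22%, 19% and 21.6% of tested genes. Nfe2l2 was lowest in back, with 42.9 ± 1.4 FPKM (SD, n = 4) where abdomen had 50.6 ± 2.9 and cheek 49.5 ± 3.9, and every back library was below all others (exact permutation test of 4 against 4, two-sided, p = 0.0286 in each case, the smallest it allows, limma adjusted p = 0.14 and 0.20). Its log2 difference was -0.24 between back and abdomen and 0.20 between cheek and back. The medians over all tested genes lay in the same directions, at -0.12 and 0.14. Across the other processing settings the Nfe2l2 differences ran from -0.24 to -0.11 and from 0.048 to 0.20. Gclc was also lowest in back, with 7.38 ± 0.77 FPKM where abdomen had 9.92 ± 0.72 and cheek 12.8 ± 6.5, with no overlap (exact permutation p = 0.0286 in each case, limma adjusted p = 0.32 and 0.16). Without cheek mouse 4 the log2 difference between cheek and back went from 0.65 to 0.35 for Gclc (adjusted p = 0.23) and from 0.44 to 0.22 for Gclm (adjusted p = 0.44). Such a separation was found for 2 of the 10 genes between back and abdomen and 2 between cheek and back, against 13.4% and 14.6% of tested genes. Hmox1 was nearly level, with abdomen at 57.6 ± 8.3 FPKM, back at 58.3 ± 3.9 and cheek at 56.8 ± 7.6, and its log2 difference between back and abdomen had a 95% interval of -0.25 to 0.30.

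The unwounded library of cheek mouse 4, which had the high hair gene levels, was above all 11 other unwounded libraries for 3 of the 10 genes and below them for 1. The share of all tested genes for which this library was outermost is not given here, so these counts cannot be set against it. Gclc was 22.35 FPKM against 9.58 ± 1.5 (SD, n = 3) in the other cheek mice, Gclm 22.15 against 12.0 ± 2.0, and Txnrd1 35.14 against 22.8 ± 1.8. Prdx6 was 79.42 against 116 ± 5.4. Nfe2l2, Hmox1, Nqo1, Srxn1, Slc7a11 and Prdx1 lay within the range of the other libraries. With a single library, these are values with no test, and the part of the hair genes in them was not tested.

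**Figure D3:**
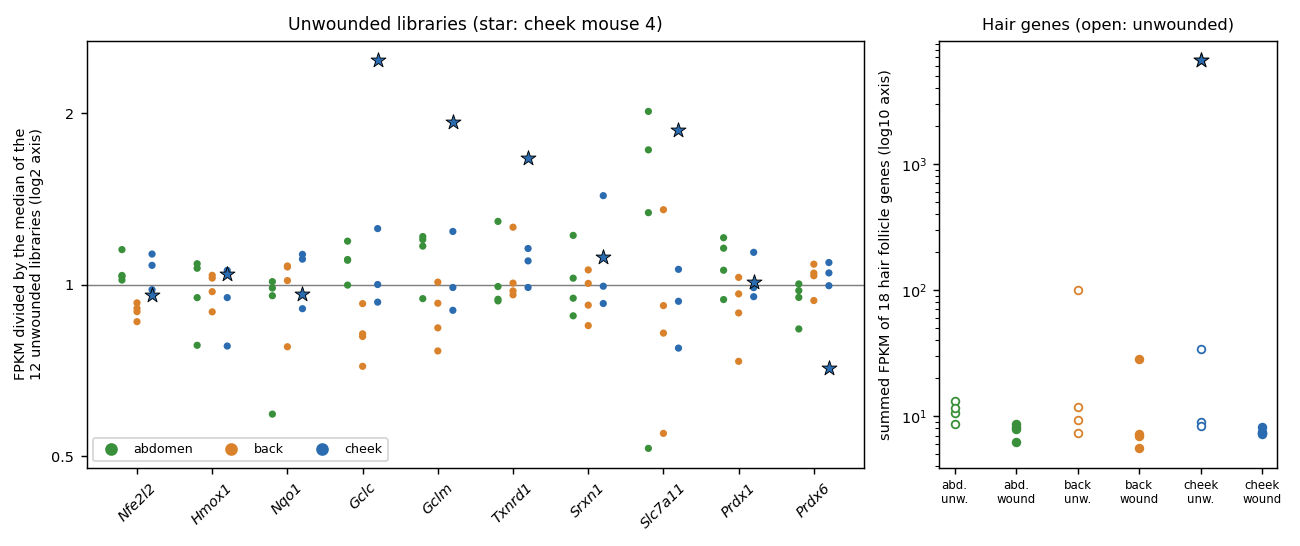
Left, FPKM of the 10 genes in the 12 unwounded libraries divided by the gene's median over them (log2 axis), coloured by site, with a star for cheek mouse 4. Right, summed FPKM of 18 hair shaft and inner root sheath genes in all 24 libraries (log10 axis), where the same library reaches 6651 and all others stay at or below 99.4.

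Among wounds, sites differed in 2 of the 10 genes between cheek and abdomen (Hmox1 and Gclc) and in 1 between cheek and back (Gclc), all higher in cheek, and in none between back and abdomen. The share of all tested genes was 10.8% (7.52% as higher in cheek), 2.5% (1.9%) and 1.27%. Hmox1 had 148.5 ± 12.5 FPKM (SD, n = 4) in abdomen wounds, 255.7 ± 42.9 in back wounds and 233.2 ± 66.8 in cheek wounds. Each back and each cheek wound was above each abdomen wound (exact permutation test p = 0.0286 for both), while back and cheek overlapped. The log2 difference was 0.61 ± 0.18 (SE, limma adjusted p = 0.046) between cheek and abdomen and 0.77 ± 0.18 (adjusted p = 0.055) between back and abdomen. In the 12 fits that left out a mouse, the former had an adjusted p above 0.05 in 9, with back mouse 4 and cheek mice 1 and 4 the exceptions (at most 0.11), and the latter passed 0.05 only without cheek mouse 3 (0.031). The 9 macrophage genes summed to 922 ± 122 FPKM over abdomen, 1202 ± 121 over back and 1026 ± 84 over cheek wounds, and their part in the Hmox1 levels was not tested.

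Gclc levels in cheek wounds lay within 9.84 to 10.08 FPKM, above all back wounds (6.33 to 7.49) and all abdomen wounds (6.71 to 9.31). The log2 difference was 0.36 ± 0.096 (SE, limma adjusted p = 0.035) against abdomen and 0.48 ± 0.096 (adjusted p = 0.035) against back, and either call was lost when 1 of 7 mice was left out (abdomen mice 1, 3 and 4 or any cheek mouse for the first, back mice 2, 3 and 4 or any cheek mouse for the second, adjusted p at most 0.092 and 0.11). Quantile normalization ended both calls of Gclc (0.053 and 0.055), and median-ratio scaling that of Hmox1 between cheek and abdomen (0.073). In addition, 3 genes were apart without passing the adjusted threshold: Gclm and Txnrd1 were higher in every cheek than in every back wound (limma adjusted p = 0.065 and 0.085), and Prdx6 was higher in every back wound than in every abdomen and cheek wound (adjusted p = 0.067 and 0.099). The share of tested genes with no overlap, in either direction, was 21.4% between cheek and back wounds and 9.23% between back and abdomen wounds. It is not given here for cheek and abdomen wounds, so the 2 genes apart there (Hmox1 and Gclc) cannot be set against it. Within the cheek wounds, mouse 3 was the highest of 4 in 7 of the 10 genes. Runs of this kind were not particular to that library. In unwounded abdomen, mouse 4 was the lowest in 7 genes and mouse 2 the highest in 6, and in unwounded cheek mouse 2 was the lowest in 6. The shares of all tested genes are not given here.

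The 3 genes nearest to each member in pattern were sought among 14421 other genes, by the root mean square difference of the 6 group means on the centred log2 scale. Nfe2l2 was closest to Bach1 (0.032), Atp11b (0.035) and Jak2 (0.038). Hmox1 was closest to Mmp19 (0.084), Ccr2 (0.095) and Itgam (0.096), the last 2 of which encode a chemokine receptor of monocytes and an integrin of myeloid cells. Slc7a11 was closest to Havcr2 (0.079), Clec5a (0.085) and Il11 (0.10). The nearest gene was Atp6v0c (0.0465) for Srxn1, Acin1 (0.020) for Prdx1, Nemp1 (0.028) for Gclm and Plekhh2 (0.049) for Gclc. It was Kars (0.026) for Nqo1, Srcap (0.021) for Txnrd1 and Msl3l2 (0.012) for Prdx6. The cells that these likenesses come from were not tested.

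Around these 10 genes, 98 further genes of 8 pathway lists were examined, of which 93 were tested for the mean wound effect. Of these, 33 were higher, 17 lower and 43 did not pass, against 19.1% higher and 14.4% lower among all tested genes, and their median log2 difference was 0.11. No listed gene had an adjusted p under 0.05 in the F test between sites.

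Among the 11 other regulators and partners of NRF2, 2 rose and 1 fell. Bach1, the repressor that competes with NRF2, went from 10.9 ± 1.8 FPKM (SD, n = 12) to 15.1 ± 2.4 (log2 difference 0.45, limma adjusted p = 0.00012), with 11 of 12 mice higher and 1 equal, and Cul3, the scaffold of the KEAP1 ubiquitin ligase, went from 43.7 ± 4.3 to 36.6 ± 4.5 (-0.26, adjusted p = 5.8e-05), lower in 12 of 12. The other that rose was Maff, a small MAF partner. Among 12 tested genes of glutathione synthesis and use, 5 rose and 1 fell. The glutathione peroxidase Gpx1 went from 278 ± 41 to 587 ± 96 FPKM (1.07, adjusted p = 2.4e-09) and the epithelial form Gpx2 from 4.72 ± 3.2 to 10.6 ± 4.1 (1.17, adjusted p = 6.9e-05), whereas the secreted form Gpx3 went from 814 ± 264 to 394 ± 102 (-1.02, adjusted p = 5.1e-05).

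Of 13 other genes of the thioredoxin and peroxiredoxin system, 5 rose and 1 fell. Thioredoxin, Txn1, went from 105 ± 16 to 198 ± 28 FPKM (SD, n = 12, log2 difference 0.92, limma adjusted p = 5.9e-08) and glutaredoxin, Glrx, from 102 ± 25 to 287 ± 73 (1.47, adjusted p = 3.1e-08), each in 12 of 12 mice, while its mitochondrial relative Glrx2 went from 8.85 ± 1.2 to 6.96 ± 0.52 (-0.32, adjusted p = 0.00011). The 23 tested genes of quinone reduction and conjugation were divided, with 6 higher, 10 lower and a median of -0.16. The aldo-keto reductase Akr1b8 went from 13.5 ± 2.3 to 53.5 ± 14 FPKM (1.92, adjusted p = 7.3e-09) and Gsto1 from 34.6 ± 6.3 to 107 ± 24 (1.60, adjusted p = 6e-08), and the glutathione transferase Gsta3 went from 14.0 ± 6.4 to 5.09 ± 3.8 (-1.55, adjusted p = 2.8e-05) and the aldehyde dehydrogenase Aldh3a1 from 85.9 ± 24 to 44.3 ± 13 (-0.95, adjusted p = 1.5e-05).

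In haem and iron handling 3 of 11 other genes rose and 2 fell. Hmox2, the constitutive haem oxygenase, went from 44.7 ± 4.2 to 63.1 ± 7.7 FPKM (SD, n = 12, log2 difference 0.49, limma adjusted p = 5.1e-06) and the ferritin light chain Ftl1 from 1122 ± 134 to 2125 ± 388 (0.91, adjusted p = 2.5e-07), while the transferrin receptor Tfrc (-0.41, adjusted p = 0.00011) and ferrochelatase, Fech (-0.42, adjusted p = 3.5e-05), fell in 11 of 12 mice. Of 6 genes listed with the enzymes that make NADPH, 2 rose, both of the pentose phosphate pathway: G6pdx (0.44, adjusted p = 0.00052) and Pgd (0.44, adjusted p = 6.8e-05). Tkt and Taldo1, of the same pathway, do not make NADPH themselves and did not pass (adjusted p = 0.013 and 0.32). Among 8 superoxide dismutases, catalase and metallothioneins, 4 rose and 2 fell, with the extracellular Sod3 at 53.0 ± 12 and 93.6 ± 19 FPKM (0.82, adjusted p = 0.0001) and Mt3 higher (1.40, adjusted p = 0.00021) but the cytosolic Sod1 (-0.34, adjusted p = 0.00088) and catalase, Cat (-0.43, adjusted p = 1.5e-05), lower. NADPH oxidase subunits, which produce superoxide in phagocytes, rose in 6 of 9 tested, with Cybb from 8.30 ± 2.4 to 26.7 ± 8.1 FPKM (1.62, adjusted p = 3.4e-08) and Ncf4 from 9.84 ± 2.6 to 34.4 ± 6.5 (1.78, adjusted p = 7.9e-09), each in 12 of 12 mice.

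**Figure D4:**
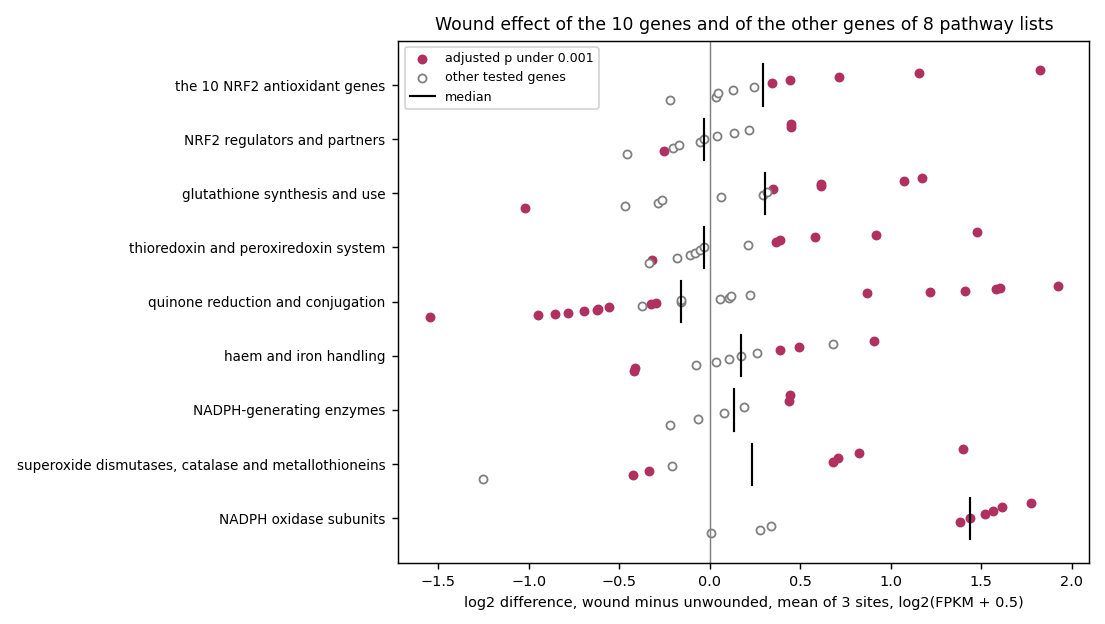
Log2 difference between wound and unwounded skin, as the mean of 3 sites, for the 10 genes (top row) and the tested other genes of 8 pathway lists, with filled points for an adjusted p under 0.001 and a vertical line for the median of each row. The medians run from -0.16 for quinone reduction and conjugation to 1.44 for NADPH oxidase subunits.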

How the data were processed

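RNA from whole skin and wounds was sequenced, and the authors deposited FPKM values per library, rounded to 2 decimals. Per the study's methods and the submitters' processing notes, reads were filtered, mapped to GRCm38/mm10 with HISAT2 and Bowtie2 (2.2.5) and quantified with RSEM (1.2.12); whether counting used strand is not given in the sources used here, so reads of genes that overlap Nfe2l2, Gclm, Txnrd1 and Slc7a11 could not be told apart. The authors also deposited DESeq2 log2 fold changes and adjusted p-values for their comparisons, which were not used. There were 0 unused per-sample columns.

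The log2(FPKM + 0.5) values were fitted in limma 3.58.1 (statmod 1.5.0, R 4.3.3), with a variance trend and robust estimation, in genes with 4 or more libraries of the fit at 0.5 FPKM or above: 14423 for wound effects over 24 libraries with a term for each mouse, 13956 between unwounded sites and 14023 between wound sites. Exact permutation tests were two-sided (Python 3.11.15, scipy 1.17.1). The models were also run on simulated data, with noise drawn independently for each gene and no library that stood apart. The outcome is not given here, so that run lends no weight to the calls. Both libraries of a mouse carry its number in the labels, and their deviations from group means correlated (mean r for abdomen 0.322, back 0.348, cheek 0.281, and -0.108, -0.116 and -0.0958 between mice). The lowest value within a mouse was -0.0299, in abdomen. Because each group of 4 was centred on its own mean, values between mice are pushed below 0 and are no independent comparison.

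The genes and lists were chosen with earlier results of these data known. From each list the text names up to 2 genes with the largest rise and 2 with the largest fall among those called in the same direction in at least 11 of 12 mice. Maff, Tkt and Taldo1 are named outside that rule, after their values were seen. Libraries are separate mice within a group, and FPKM values summed to between 490830 and 608888 per library. Alternatives were other pseudocounts, filters and scalings, fits without the trend, without or with other blocks or over fewer libraries, and each mouse left out. The effect of leaving out cheek mouse 4 on the pathway lists and the motif TGAGNNNGC were added after the data were seen.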

Additional observations from a re-analysis of the deposited data

Results flagged for a closer look

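In each group of 4 libraries, the highest or lowest value of each of the 10 genes was compared with the others by Dixon's criterion, which chance meets in about 1 in 20 groups. Of 60 gene and group pairs, 9 met it where chance gives 3. The single high libraries were those of Nfe2l2 in unwounded abdomen (55.02 FPKM) and in cheek wounds (92.67), Hmox1 in back wounds (319.38), Txnrd1 in unwounded abdomen (27.17) and unwounded back (26.54), and Slc7a11 in abdomen wounds (2.72) and back wounds (2.88). The single low libraries were those of Nqo1 (4.12) and Gclm (10.86), both in unwounded abdomen. The 3 high values of cheek mouse 4 in unwounded skin, for Gclc, Gclm and Txnrd1, were not among them.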

How the results depend on the processing

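No absolute depth accompanies these FPKM values, and 4 mice per site limit every comparison between sites. The count of 5 raised genes over the sites stayed at 5 or 6 in every fit run and the count of 0 in the test between responses stayed at 0. In abdomen, 2 called genes became 1 without the replicate block or in the site's 8 libraries alone. In back, 3 became 5 at an adjusted p under 0.05. In cheek, 3 became 1 with median-ratio scaling or without trend and robust estimation, 0 in the site's 8 libraries alone and 5 at an adjusted p under 0.05. Between unwounded back and cheek 0 became 1, and between abdomen and back wounds 0 became 1, when all 24 libraries were fitted as 6 groups. Between abdomen and cheek wounds 2 became 1 with no filter, either scaling, no trend and robust estimation, the mouse number as a replicate block across sites, or all 24 libraries as 6 groups. Between back and cheek wounds 1 became 0 with quantile normalization or all 24 libraries. With each mouse left out, the counts ran from 1 to 2 in abdomen, 2 to 5 in back, 1 to 4 in cheek, 5 to 6 over the sites, 0 to 1 between abdomen and back wounds, 0 to 2 between abdomen and cheek wounds and 0 to 2 between back and cheek wounds, and stayed at 0 in unwounded skin and between responses. Quantile normalization turned the log2 difference of Nqo1 in back to -0.0098, of Prdx6 in back to -0.022 and over the sites to -0.034, and of Txnrd1 in cheek to -0.0037 and over the sites to -0.037. Leaving out a mouse gave values of both signs for Nqo1 in abdomen (-0.0010 to 0.22) and back (-0.035 to 0.19), Prdx6 in abdomen (-0.076 to 0.013), cheek (-0.13 to 0.11) and over the sites (-0.012 to 0.069), Gclc in back (-0.099 to 0.0048) and cheek (-0.40 to 0.063), and Txnrd1 in back (-0.11 to 0.027), cheek (-0.059 to 0.23) and over the sites (-0.00082 to 0.097). Scaling changed the split of all called genes over the sites from 2754 higher and 2070 lower to 2605 and 2390 with median-ratio scaling and 2229 and 3010 with quantile normalization, and in back from 1443 and 631 to 1221 and 814 and to 1075 and 989; with quantile normalization it was 498 and 307 in abdomen and 855 and 515 in cheek. The causes were not tested. Without cheek mouse 4, the called genes of the pathway lists, the 10 genes included, went from 7 to 10 in glutathione synthesis and use, 8 to 9 in the thioredoxin and peroxiredoxin system and 6 to 5 in superoxide dismutases, catalase and metallothioneins, an alternative chosen after seeing the data. The shares of all tested genes called in this fit, and in the other fits that left out a mouse, are not given here. The counts from those fits therefore cannot be set against such shares.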
